A study of Homo sapiens with 4 samples.

Results

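The effect of stable SPRR1A expression on the rest of the transcriptome was examined in PK-1 cells by setting the library of cells infected with the retroviral vector pMXs-SPRR1A-FLAG against the library of cells infected with pMXs-DsRed. Genes were kept when their log2 TPM was at least 2.32, which is a TPM of 5, in both libraries, and SPRR1A and the small RNAs named MIR, SNORA, SNORD, SCARNA or RNU were left out. This rule kept 9718 of the 53826 entities listed, of which 9352 were protein-coding and 232 were long noncoding RNAs in RefSeq. The difference of each gene was then centred on the median difference of these genes, 0.06 on the log2 scale, and all differences below are centred in this way.

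PK-1 is a cell line from a well-differentiated human pancreatic ductal adenocarcinoma. The stable lines were made with virus from Plat-A packaging cells, and both carry a pMXs retroviral vector, with FLAG-tagged SPRR1A in one (the SPRR1A line) and the red fluorescent protein DsRed in the other (the DsRed line). The paper describes no cloning step and writes of a pMXs-DsRed population, but does not state whether single clones were picked. How long the lines were cultured before RNA was taken is not given in the sources used here. RNA of each of 4 conditions was sequenced as 1 library, the others being PK-1 cells transfected with pCAG-SPRR1A-FLAG or pCAG-GFP plasmid, the transient pair, which shares no library with the stable pair. With 1 library a side, no difference has a replicate error, no test was possible, and a difference cannot be told apart from one between any 2 cultures of this line. Depth in reads is unknown.

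SPRR1A encodes a small proline-rich protein that transglutaminases cross-link into the cornified envelope, the protein shell under the membrane of terminally differentiating keratinocytes. It is one of a family of such genes in the epidermal differentiation complex, together with S100 genes and involucrin. Squamous and basal programs of this kind mark one of the expression subtypes of pancreatic cancer.

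The label of each library was checked first. SPRR1A had a log2 TPM of 10.93 in the SPRR1A line and 0.75 in the DsRed line, and of 16.60 and 3.56 with SPRR1A and GFP plasmid. Of the 9 pancreatic ductal and epithelial markers, KRT7, KRT8, KRT18 and KRT19 lay between 11.47 and 12.94 in every library and EPCAM, CDH1 and SOX9 between 5.46 and 9.16. The ductal and epithelial markers CFTR and MUC1 were at or near 0, with CFTR listed at 0 in each library and MUC1 at 0.51 in the SPRR1A line, at 0 in the DsRed line and at 0.90 and 0.80 with SPRR1A and GFP plasmid. All 5 endothelial and all 4 endocrine markers were listed at 0 in the 4 libraries, as were 7 of 8 fibroblast, 6 of 8 leukocyte and 4 of 5 acinar markers.

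The 2 stable libraries were close to each other. The centred log2 difference had an SD of 0.17 over the 9718 genes, and 95 in 100 of them lay between -0.32 and 0.34. The SD was 0.21 in the lowest of 10 equal bins of mean level and 0.11 in the highest. Over the 9553 genes that also reached a TPM of 5 in both transient libraries, the SD was 0.17 in the stable pair and 0.12 in the transient pair. Only 35 genes (0.36%) were more than 0.5 higher in the SPRR1A line, which is 1.41-fold, and 33 genes (0.34%) were more than 0.5 lower. Without centring these counts were 63 and 21, and with centring along the mean level they were 29 and 43. Of the same 9718 genes, 21 (0.216%) were above 0.5 in the transient pair and 14 (0.144%) were below -0.5. A 2-fold difference was passed by 2 genes in the upward direction (0.0206%), LCP1 and COL4A2, and by 4 in the downward direction (0.0412%), RPPH1, RN7SK, HSD17B3 and RN7SL2.

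**Figure D1:**
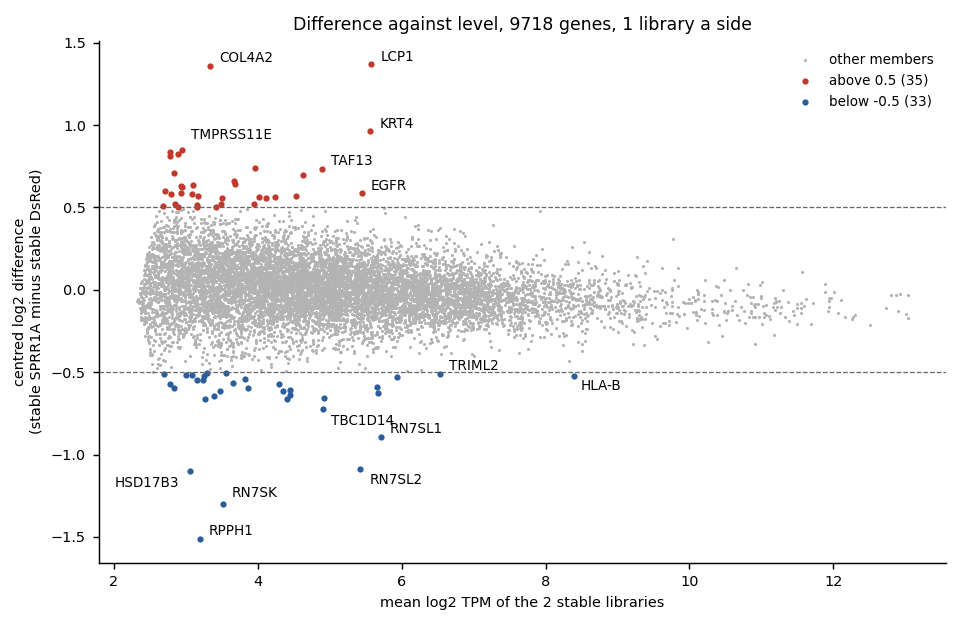
Centred log2 difference, SPRR1A line minus DsRed line (y axis), against the mean log2 TPM of both (x axis), 1 point per gene. Red points mark the 35 genes above 0.5 and blue points the 33 below -0.5, most of which lie at low levels, with LCP1 and COL4A2 at the top and RPPH1 at the bottom.

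LCP1 had the highest difference of all. It encodes L-plastin, an actin-bundling protein best known from leukocytes and often expressed in carcinoma cells, and lies on GRCh38 chr13:46125923-46182177. Its log2 TPM was 6.29 in the SPRR1A line and 4.86 in the DsRed line, and 6.75 and 6.90 with SPRR1A and GFP plasmid. The DsRed line was thus the low one, and the other 3 libraries lay between 6.29 and 6.90. The difference of the stable pair was 1.37, or 2.58-fold, and that of the transient pair was 0.04. In such bulk libraries, fewer cells with a transcript and less of it per cell cannot be told apart. The leukocyte markers PTPRC, CD3E, CD14, CD53 and TYROBP were listed at 0 in all 4 libraries. The leukocyte markers LAPTM5 and CORO1A were detected at low levels and were lowest in the DsRed line, as LCP1 was. LAPTM5 was at 0.98 in the SPRR1A line and 0.40 in the DsRed line, and 1.86 and 2.15 with SPRR1A and GFP plasmid. CORO1A was at 1.79 in the SPRR1A line and 1.51 in the DsRed line, and 1.78 and 1.76 with SPRR1A and GFP plasmid. The summed TPM of the 8 leukocyte markers was 5.44 in the SPRR1A line and 4.16 in the DsRed line, against 78.3 and 29.1 for LCP1 alone, and their part in the difference was not tested. Among the 7 actin-bundling genes that passed the minimum, 6 were above 0 and the median was 0.17, where the centring puts as many genes above 0 as below. The other two plastins were at 0.32 for PLS1 and 0.12 for PLS3, and fascin (FSCN1) was at -0.09, so that LCP1 was the only one of the 7 above 0.5.

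COL4A2 came next and encodes the alpha2 chain of type IV collagen, the network-forming collagen of basement membranes, on chr13:110307284-110513209. Its log2 TPM was 4.05 in the SPRR1A line and 2.63 in the DsRed line, and 3.98 and 4.10 with SPRR1A and GFP plasmid. Again the DsRed line was low and the other 3 libraries were alike, with a difference of 1.36 in the stable pair and 0.05 in the transient pair. COL4A1, which encodes the alpha1 chain that assembles with alpha2, lay just below the minimum and was not among the 9718 genes. Its values were 2.31 in the SPRR1A line and 0.997 in the DsRed line, and 2.01 and 2.41 with SPRR1A and GFP plasmid, a difference of 1.25 in the stable pair and the same pattern over the 4 libraries. Both genes are read in opposite directions from start sites with 126 bases between them, so that they share this stretch as their promoter. It is shown because it lies between these genes, whose values followed the same pattern. It is given on the plus strand from RefSeq, GRCh38.p14 chr13:110307158-110307283, with a CCAAT and a GGGCGG match in capitals, and COL4A1 is read leftwards from its left end and COL4A2 rightwards from its right end.
COL4A1-COL4A2: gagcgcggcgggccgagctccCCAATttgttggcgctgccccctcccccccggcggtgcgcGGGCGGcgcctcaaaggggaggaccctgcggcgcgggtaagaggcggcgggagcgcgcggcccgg

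On both strands the stretch held 1 match to CCAAT and 1 to GGGCGG, which do not overlap. In the 126 bases before the start of each of 35116 RefSeq genes, CCAAT was found in 21.1% and GGGCGG in 34.6%. These matches describe the letters only. The other type IV collagen chains did not share the pattern, with differences of 0.01 for COL4A5 and -0.15 for COL4A6, while COL4A3 and COL4A4 were listed at 0 in all 4 libraries. Of the 16 basement membrane genes that passed the minimum, 8 were above 0 and 8 below, with a median of -0.06. COL7A1, the collagen of anchoring fibrils, was the lowest at -0.50, with log2 TPM of 3.33 in the SPRR1A line and 3.78 in the DsRed line, and 3.72 and 3.89 with SPRR1A and GFP plasmid. The SPRR1A line was the low library for COL7A1. NID2, a nidogen that links laminin to type IV collagen, stayed under the minimum at 1.46 in the SPRR1A line and 0.08 in the DsRed line.

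KRT4, a type II keratin of stratified squamous epithelium of the esophagus and mouth on chr12:52806549-52814116, followed. Its log2 TPM was 6.07 in the SPRR1A line and 5.05 in the DsRed line, and 3.68 and 3.80 with SPRR1A and GFP plasmid. Both stable libraries lay above both transient ones, and the SPRR1A line was the highest, 0.96 above the DsRed line. KRT13, the type I keratin that pairs with KRT4, was among the most abundant transcripts at 11.92 and 11.96 in the 2 stable libraries, a difference of -0.10. Of the 13 keratins that passed the minimum, 5 were above 0 and 8 below, and the median of -0.10 came to 0.02 after adjustment for GC content, transcript length and level, in which the median of genes alike in each property was subtracted. The same adjustment brought the basement membrane median to -0.02. The basal keratins KRT5 and KRT17 followed KRT4 at 0.31 and 0.23, and the simple epithelial keratins KRT8, KRT18 and KRT19 were at -0.11, -0.13 and -0.13. KRT14, the usual partner of KRT5, stayed under the minimum at 1.03 in the SPRR1A line and 2.04 in the DsRed line.

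The other cornified envelope precursors showed no common direction. Of 44 entities in this list, 35 were listed at 0 in both stable libraries and 7 passed the minimum, of which 4 were above 0 and 3 below, with a median of 0.01 that was 0.08 after the adjustment. SPRR1B, the closest relative of SPRR1A, had a log2 TPM of 6.50 in the SPRR1A line and 6.55 in the DsRed line, a difference of -0.11. The lowest and the highest of the list were SPRR3, at -0.30, and sciellin (SCEL), at 0.30, and the envelope precursor involucrin (IVL) was at 0.20. None of the 7 passed 0.5 in either direction. The 20 genes of the basal-like signature that passed the minimum had a median of -0.03 with 8 above 0, and the 3 of the classical signature had a median of -0.10, and none of either passed 0.5. After the adjustment 10 of the 20 basal-like genes were above 0, and the classical median was -0.05.

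The S100 family of calcium-binding proteins held one gene past 0.5 on each side. S100A4, which is linked to cell motility, had a log2 TPM of 4.24 in the SPRR1A line and 3.66 in the DsRed line, and 3.06 and 3.34 with SPRR1A and GFP plasmid, a difference of 0.52. S100P was at 4.04 in the SPRR1A line and 4.56 in the DsRed line, and 4.05 and 4.44 with SPRR1A and GFP plasmid, a difference of -0.57. S100P was lower with SPRR1A in both pairs, at -0.21 in the transient pair, whereas for S100A4 the transient difference was -0.10. After the adjustment S100P came to -0.48 and S100A4 to 0.60. S100P lies on chromosome 4 in a window of 15 neighbouring genes, from LRPAP1 to GRPEL1. In this window 14 of 15 genes were below 0 after the adjustment, with a median of -0.19. In the family as a whole, 10 of 11 genes were below 0 with a median of -0.15, which was -0.01 after the adjustment for GC content, transcript length and level. S100A4 overlaps LOC101928034, which was lower in the SPRR1A line, at 1.42 against 2.22, and the summed TPM of both was 21.5 and 17.2 in the SPRR1A and the DsRed line.

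TMPRSS11E, a serine protease of squamous epithelium, had a log2 TPM of 3.40 in the SPRR1A line and 2.49 in the DsRed line, and 4.50 and 4.55 with SPRR1A and GFP plasmid. The atypical chemokine receptor ACKR3 was at 3.34 in the SPRR1A line and 2.46 in the DsRed line, and 4.77 and 4.87 with SPRR1A and GFP plasmid. For both, the DsRed line was the lowest and the SPRR1A line the next lowest, with differences of 0.85 and 0.82. SLC2A3, the glucose transporter GLUT3, was at 3.23 in the SPRR1A line and 2.33 in the DsRed line, and 2.06 and 2.59 with SPRR1A and GFP plasmid, a difference of 0.84. It was the only one of 22 glycolysis genes past 0.5, and their median was -0.04, or 0.01 after the adjustment, with SLC2A1 (GLUT1) at -0.04. SLC2A3 lay just above the minimum in the DsRed line, as did CSRP2, a LIM-domain protein, at 0.81.

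The receptor EGFR, on chr7:55019017-55211628, was at a higher level than most of these. Its log2 TPM was 5.77 in the SPRR1A line and 5.12 in the DsRed line, and 5.92 and 6.28 with SPRR1A and GFP plasmid, a difference of 0.59. The DsRed line was again the lowest of the 4. Of the 10 EGF ligands and ERBB receptors that passed the minimum, 7 were above 0 and the median was 0.09. After the adjustment 7 were above 0 with a median of 0.03, and EGFR was at 0.51. The ligands epiregulin (EREG), EPGN and AREG were at 0.31, 0.27 and 0.10, and at 0.15, 0.17 and 0.15 after the adjustment, and ERBB2 and ERBB3 were at -0.13 and 0.01. The immediate early and feedback genes that the ERK pathway acts on lay on both sides, with 11 of 25 above 0 and a median of -0.01, or 0.02 after the adjustment.

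The rest of the 15 highest genes lay between 0.63 and 0.74. TAF13, a subunit of the transcription factor TFIID, had a log2 TPM of 5.29 in the SPRR1A line and 4.49 in the DsRed line, and 6.18 and 6.30 with SPRR1A and GFP plasmid, a difference of 0.73 with the DsRed line the lowest. KNL1, a scaffold of the kinetochore, was at 3.22 in the SPRR1A line and 2.46 in the DsRed line, and 3.38 and 3.83 with SPRR1A and GFP plasmid, a difference of 0.71 that was 0.51 after the adjustment. The long noncoding RNA LINC01873 was at 0.74, SMIM4 at 0.69, UEVLD at 0.64, TM4SF19 at 0.63 and STARD5, a lipid transfer protein, at 0.63. For each of these 5 the DsRed line was the lowest of the 4 libraries, and UEVLD came to 0.49 after the adjustment.

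Integrins, which bind the basement membrane and other matrix, and junction genes lay mostly above 0. Of 11 integrin genes 8 were above 0, with a median of 0.16 and only ITGA1 past 0.5, at 2.97 in the SPRR1A line and 2.40 in the DsRed line. Its partner ITGB1 was at 0.18, and ITGA2 and ITGAV were both at 0.28. After the adjustment the median of the integrins was 0.05, and ITGA1 was at 0.36. Of 28 epithelial junction genes 19 were above 0, with a median of 0.07 that was 0.08 after the adjustment. The desmosomal cadherin DSG3 was the highest at 0.48 and claudin CLDN1 was next at 0.44, and CLDN9 was the lowest at -0.34. No junction gene passed 0.5.

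Of the genes other than SPRR1A that the study followed by PCR, none passed 0.5. E-cadherin (CDH1) had a log2 TPM of 7.26 in the SPRR1A line and 7.04 in the DsRed line, a difference of 0.16. Vimentin (VIM) was at 5.32 and 5.08, a difference of 0.19, and the transcription factor RREB1 at 3.23 and 3.01, a difference of 0.15. SNAI1 lay under the minimum at 1.84 and 1.63, N-cadherin (CDH2) was listed at 0 in all 4 libraries, and ACTB differed by -0.04. CDH1 and VIM were thus both slightly higher in the SPRR1A line, by about the SD over all genes. By PCR, the paper reported a decrease of CDH1 in SPRR1A-transduced cells that was not significant, the opposite direction. It found no significant change of the other markers. Of 7 mesenchymal transition genes that passed the minimum 6 were above 0, with a median of 0.13 and S100A4 alone past 0.5.

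**Figure D2:**
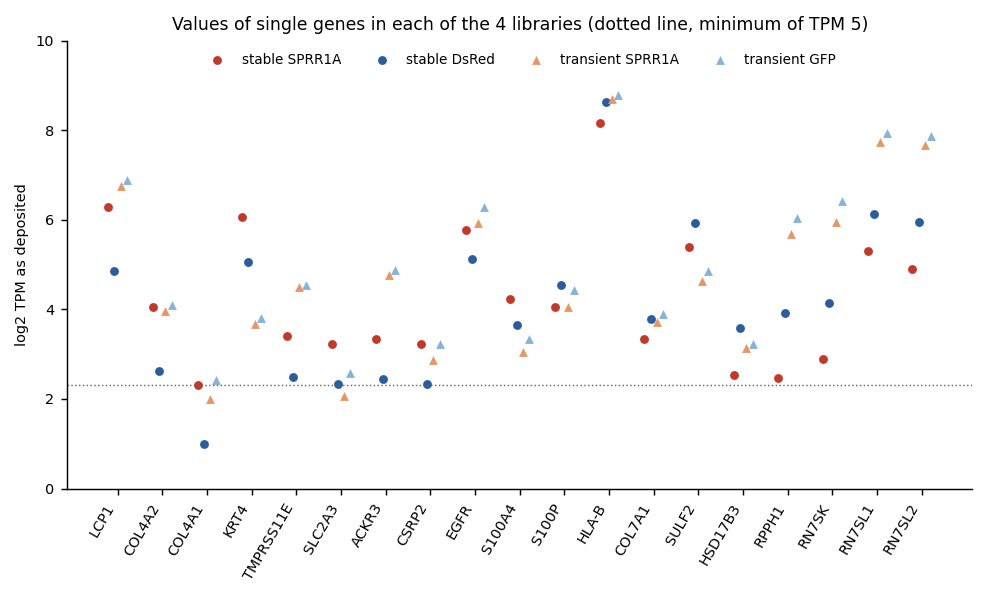
Deposited log2 TPM (y axis) of 19 genes in the SPRR1A line (red circles), the DsRed line (dark blue circles) and the transient SPRR1A (orange triangles) and GFP (light blue triangles) libraries, 1 point per library, with a dotted line at the minimum of TPM 5. For LCP1, COL4A2, COL4A1 and EGFR the DsRed line is the low one, and for RPPH1, RN7SK, RN7SL1 and RN7SL2 both stable libraries lie below both transient ones.

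The lowest differences belonged to short structural RNAs made by RNA polymerase III. RPPH1, the RNA of ribonuclease P on chr14:20343071-20343411, had a log2 TPM of 2.46 in the SPRR1A line and 3.92 in the DsRed line, and 5.68 and 6.04 with SPRR1A and GFP plasmid. RN7SK, which holds the elongation factor P-TEFb inactive, was at 2.89 in the SPRR1A line and 4.13 in the DsRed line, and 5.95 and 6.42 with SPRR1A and GFP plasmid. The 2 genes of the signal recognition particle RNA were at 4.91 and 5.94 for RN7SL2 and at 5.30 and 6.13 for RN7SL1 in the SPRR1A and the DsRed line, and between 7.66 and 7.94 in the transient libraries. All 4 genes thus had the same order of libraries, lowest in the SPRR1A line, then the DsRed line, and highest with GFP plasmid.

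The differences of the stable pair were -1.51 for RPPH1, -1.30 for RN7SK, -1.09 for RN7SL2 and -0.89 for RN7SL1, and those of the transient pair lay between -0.29 and -0.02. All 4 polymerase III RNAs that passed the minimum were thus below -0.5, with a median of -1.20. RMRP, the RNA of ribonuclease MRP and the relative of RPPH1, lay under the minimum in the SPRR1A line and had the same order of stable libraries, 1.73 and 2.58, with 4.56 and 4.93 after transfection of SPRR1A and GFP plasmid. These RNAs carry no poly(A) tail as a rule, and the libraries were made by a poly(A) method. RN7SL1 and RN7SL2 are near-identical copies, so the division of reads between them is uncertain and they are not independent of each other. In a global alignment their GENCODE 44 transcripts, 299 and 300 bases long, were identical at 295 of 300 positions, or 98.3%, with 4 substitutions and 1 gap. Their values moved alike over the 4 libraries.

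HSD17B3, a hydroxysteroid dehydrogenase that makes testosterone, on chr9:96235306-96302176, was the protein-coding gene with the lowest difference. Its log2 TPM was 2.54 in the SPRR1A line and 3.59 in the DsRed line, and 3.15 and 3.22 with SPRR1A and GFP plasmid. The transient libraries lay between the stable ones, and the difference of the stable pair was -1.10, or 2.15-fold. Other genes on this side were the heparan sulfate sulfatase SULF2 at -0.59, the GABA receptor subunit GABRE at -0.64 and PRSS3, a trypsin gene that shares sequence with other trypsin genes, at -0.61. SULF2 was at 5.40 in the SPRR1A line and 5.93 in the DsRed line, and 4.63 and 4.86 with SPRR1A and GFP plasmid, highest in the DsRed line. PIGU, a subunit of the enzyme that attaches GPI anchors, was at -0.63 with log2 TPM of 5.38 in the SPRR1A line and 5.95 in the DsRed line, and 5.45 and 5.64 with SPRR1A and GFP plasmid. Also among the 15 lowest were PTOV1-AS2 at -0.66, CDPF1 at -0.64 and CCDC61 at -0.62. NSFP1 was at -0.66 in the stable and -0.52 in the transient pair, and as a pseudogene of NSF it may share reads with that gene.

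HLA-B had the highest level of the 33 genes below -0.5. This heavy chain of MHC class I was at 8.16 in the SPRR1A line and 8.62 in the DsRed line, and 8.70 and 8.78 with SPRR1A and GFP plasmid, a difference of -0.52 with the SPRR1A line the low library. HLA-F and HLA-C were at -0.26 and -0.24, and the immunoproteasome subunits PSMB8, PSMB10 and PSMB9 were at -0.26, -0.24 and -0.15. HLA genes share long stretches of sequence, so the division of reads between them is uncertain. The light chain B2M was at -0.04 and the peptide transporters TAP1 and TAP2 were at -0.17 and 0.04. In the MHC class I list 14 of 20 genes were below 0 with a median of -0.14, and HLA-B alone was below -0.5, while the adjusted median was -0.05 with 15 of 20 below 0. Interferon-stimulated genes, which share regulators with this list, had 16 of 28 above 0 and a median of 0.06, from -0.40 for IFI6 to 0.36 for SAMD9L.

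Small nucleolar RNA host genes were mostly lower. These genes carry snoRNAs in their introns and many are spliced into short noncoding RNAs. Of 22 that passed the minimum 20 were below 0, with a median of -0.15 in the stable pair and 0.08 in the transient pair. SNHG9 alone passed -0.5, at 4.07 in the SPRR1A line and 4.62 in the DsRed line, and 4.39 and 4.59 with SPRR1A and GFP plasmid. SNHG19 followed at -0.49, and SNHG4 was the highest of the list at 0.43. After adjustment for GC content, length and level the median stayed at -0.13 with 19 of 22 below 0, and SNHG9 came to -0.47.

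Genes of protein synthesis and energy metabolism were displaced together by small amounts. Of 84 cytoplasmic ribosomal protein genes 80 were below 0 (95.2%), with a median of -0.11 and a range from -0.26 to 0.18. The medians were also -0.11 for 78 mitochondrial ribosomal protein genes and -0.09 for both 79 nuclear subunits of oxidative phosphorylation and 37 proteasome subunits. In the transient pair all 4 medians had the opposite sign, from 0.05 to 0.09. After the adjustment the 4 medians of the stable pair lay between -0.04 and -0.02, so most of each displacement went with the GC content, length or level of the transcripts. None of these genes passed 0.5.

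The NRF2 list and the metallothioneins kept a part of their displacement. Of 27 NRF2 targets and aldo-keto reductases, genes of the response to oxidants, 22 were below 0 with a median of -0.12, and 24 were below 0 with a median of -0.07 after the adjustment. The lowest were heme oxygenase (HMOX1) at -0.47 and AKR1C2 at -0.43, and NQO1 was the highest at 0.13. The metal-binding metallothioneins MT1X, MT2A and MT1F were at -0.40, -0.33 and -0.19, and their median was -0.18 after the adjustment. No gene of these lists passed 0.5.

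Among the lists on the upper side, 8 of 8 Notch pathway genes were above 0, with a median of 0.09 that was 0.16 after the adjustment. They ranged from 0.03 for the ligand JAG2 to 0.35 for the feedback gene NRARP, and in the transient pair their median was -0.15. Of 40 G2/M genes, which act in mitosis, 30 were above 0 with a median of 0.09, and of 33 G1/S genes, which act in DNA replication, 14 were above 0 with a median of -0.05. ECT2 and CKAP2 were the highest G2/M genes at 0.43 and 0.39, and CDC25B was the lowest at -0.19. The adjusted medians were 0.05 for the G2/M and -0.02 for the G1/S genes. Of 13 TGF-beta targets 9 were below 0 with a median of -0.13, yet thrombospondin (THBS1) was at 0.48, from 8.19 in the SPRR1A line and 7.65 in the DsRed line. After the adjustment 7 of these 13 were below 0 with a median of -0.05, and THBS1 was at 0.42.

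**Figure D3:**
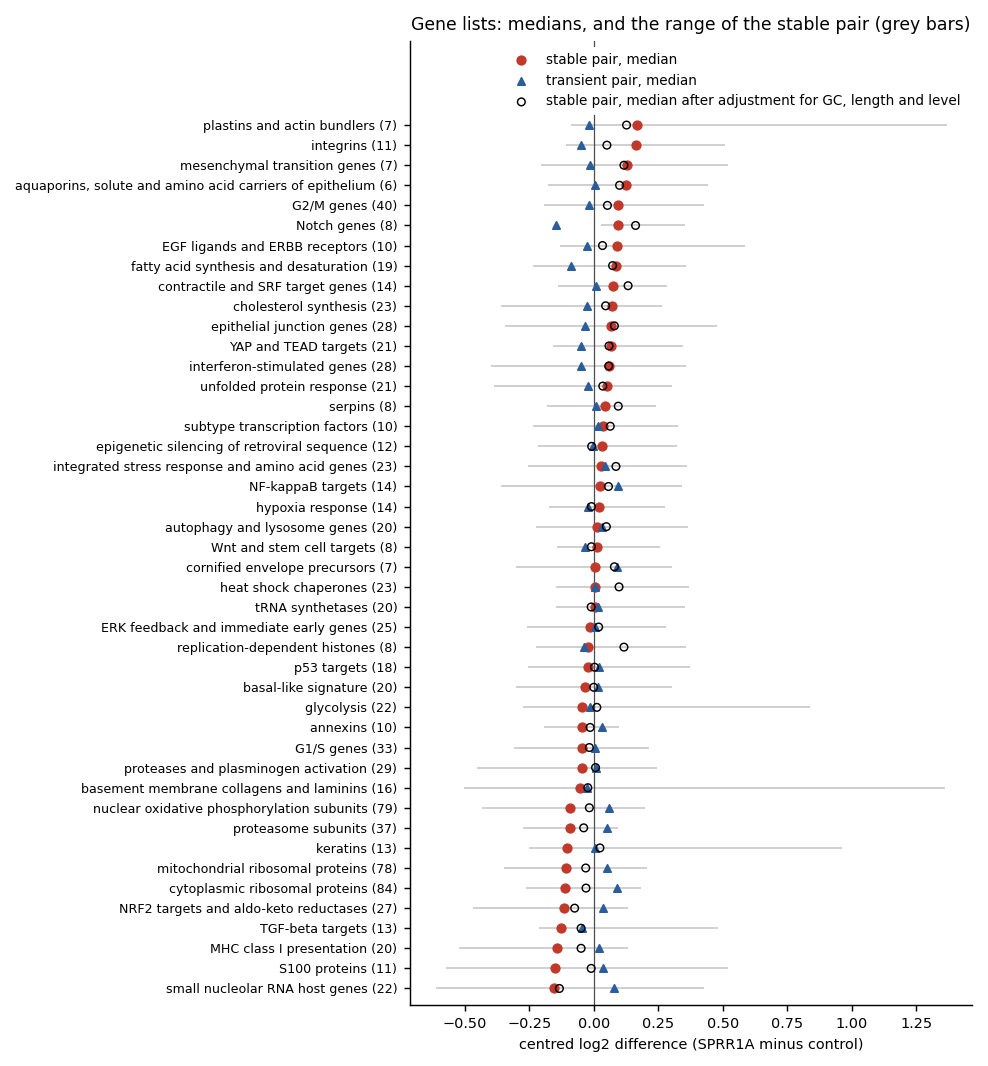
Median centred log2 difference (x axis) of each gene list with at least 5 genes past the minimum (number in parentheses), in the stable pair (red circles), in the stable pair after adjustment for GC content, transcript length and level (open circles), and in the transient pair (blue triangles), with grey bars from the lowest to the highest gene of the stable pair. List medians lie between -0.15 and 0.17, and the long bars of plastins, basement membrane genes and keratins end at LCP1, COL4A2 and KRT4.

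The DsRed line was at one end of the 4 libraries for many of these genes. When each library was centred on its median over the 9553 genes of both pairs, the DsRed line was the lowest of the 4 for 32 of the 35 genes above 0.5 (91.4%) and for 29.3% of all 9718. The SPRR1A line was the highest of the 4 for 13 of the 35, against 19.3% of all genes. For the 33 genes below -0.5, the DsRed line was the highest for 26 (78.8%, against 37.8% of all) and the SPRR1A line the lowest for 21 (63.6%, against 17.8% of all). Part of these counts is fixed by the choice of genes, since a gene above 0.5 cannot have the DsRed line above the SPRR1A line. The shares of all genes carry no such choice, so they are not a like-for-like background for these counts. In the transient pair 14 of the 35 genes were above 0 and 21 below, and 15 of the 33 were above 0 and 18 below, with medians of -0.02 and -0.01. Over the 9553 genes, Pearson's r between both centred differences was -0.19, and it was -0.08 after the adjustment. These genes share the libraries and are not independent.

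The difference followed the base composition of the transcript. GC content and length were taken from the canonical GENCODE transcript, found for 99.3% of the genes. In the lowest of 10 equal bins of GC content, from 30.7% to 38.6%, the median difference was 0.14 and 85.3% were above 0. In the highest bin, from 62.0% to 76.0%, the median was -0.10 and 24.5% were above 0. Spearman's rho across 9647 genes was -0.49 in the stable pair and 0.17 in the transient pair.

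Longer transcripts had higher differences, from a median of -0.10 in the bin of the shortest to 0.09 in that of the longest, with a rho of 0.36, and the transient pair ran the other way, from 0.06 to -0.06. Along the mean level the medians ran from 0.04 in the lowest bin to -0.07 in the highest. The genes above 0.5 had a median GC content of 45.3% and a median length of 3347 nt, and those below -0.5 had 57.6% and 1489 nt, against 49.1% and 3095 nt over all genes. Removing the medians of 20 bins of GC content, length and level brought the SD from 0.17 to 0.14. Of the 35 genes above 0.5, 33 had these properties and 23 stayed above it, LCP1 at 1.32, COL4A2 at 1.42 and KRT4 at 1.03 among them. Of the 33 genes below -0.5, 19 stayed below it, HSD17B3 at -1.05 and RPPH1 at -1.37 among them, and HLA-B came to -0.37. What the gradient itself comes from was not tested.

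**Figure D4:**
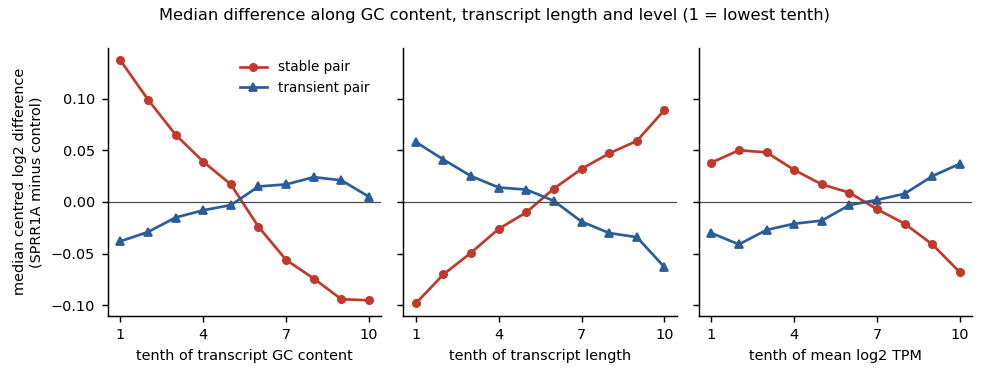
Median centred log2 difference (y axis) of the stable pair (red circles) and the transient pair (blue triangles) in 10 equal bins of genes ordered by transcript GC content, transcript length or mean log2 TPM of the stable libraries (x axes, 1 is the lowest bin). The stable pair runs from 0.14 to -0.10 along GC content, and in the transient pair the lowest bin is at -0.04.

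Genes of chromosome 22 were lower as a block. Of its 256 genes 229 were below 0 (89.5%), with a median of -0.18, and after the adjustment 226 were below 0 with a median of -0.12. This was the lowest of 23 chromosomes, followed by chromosomes 18 and 4, each at -0.06, and chromosome 20 at -0.04. Without the adjustment the medians were 0.04 on chromosome 18, 0.01 on chromosome 4 and -0.07 on chromosome 20. At the other end were chromosomes 13 at 0.07, 15 at 0.05 and 8 at 0.04. In the transient pair the adjusted medians lay between -0.01 and 0.01 on every chromosome. Against the mean of the transient libraries, chromosome 22 was at -0.05 in the SPRR1A line and 0.06 in the DsRed line, so that the 2 stable libraries lay on opposite sides of it. Chromosome 4 was at 0.08 in the SPRR1A line and 0.14 in the DsRed line, and chromosome 13 at -0.01 and -0.08. Chromosome 18 was at 0.001 in the SPRR1A line and -0.007 in the DsRed line, each adjusted on its own. Compared gene by gene in the stable pair, 68 of its 121 genes were below 0 after the adjustment. The medians against the transient libraries therefore do not give the direction of that difference on chromosome 18. Chromosome 21 was at 0.20 and 0.19, a distance from the transient libraries that both stable lines shared.

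Within chromosomes, windows of 15 neighbouring genes were compared after the adjustment. The window medians had an SD of 0.06 over 9320 overlapping windows in the stable pair and 0.03 in the transient pair, where they lay between -0.12 and 0.11. The lowest window ran over chr22:35241536-36776119, from HMGXB4 to IFT27, with all 15 genes below 0 and a median of -0.25. The next ran over chr18:9334773-12884237, from TWSG1 to PTPN2, also with 15 of 15 below 0 and a median of -0.22. On chromosome 4, chr4:425435-1721323 had 14 of 15 below 0 and a median of -0.20. The highest window ran over chr1:113894194-117528872, from AP4B1 to MAN1A2, with 14 of 15 above 0 and a median of 0.20. A window on chromosome 15, from THBS1 to KNL1, had 12 of 15 above 0 and a median of 0.17. On chromosome 13, on which LCP1 and COL4A2 lie, a window from UCHL3 to ABCC4 was at 0.17, and both genes lay far above the chromosome's median. What sets these blocks apart was not tested.

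**Figure D5:**
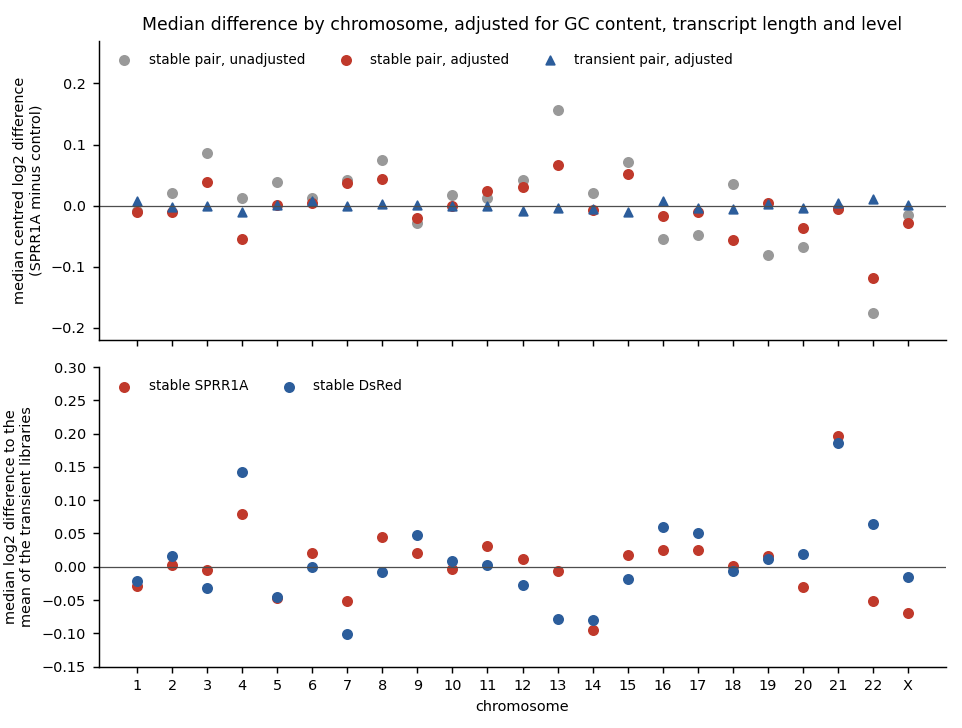
Upper panel, median centred log2 difference per chromosome in the stable pair without (grey) and with (red) adjustment for GC content, transcript length and level, and in the transient pair with it (blue triangles). Lower panel, adjusted median of the SPRR1A line (red) and the DsRed line (blue) against the mean of the transient libraries, where chromosome 22 lies at -0.05 and 0.06 in the 2 stable libraries and chromosome 21 near 0.20 in both.

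A few of the 68 genes past 0.5 overlap other entities to which reads may have been assigned. By RefSeq spans 20 of the 68 overlapped another entity listed above 0, a share that is not given here for all 9718 genes. For 4 of the 20 the other entity differed by more than 0.3 the opposite way. One was S100A4, described above. TBC1D14, a regulator of autophagy, was at -0.72, with log2 TPM of 4.58 in the SPRR1A line and 5.24 in the DsRed line, while LOC100129931 in its span was at 4.03 in the SPRR1A line and listed at 0 in the DsRed line. The summed TPM of both was 40.3 and 37.8, a centred difference of 0.03. SLC46A1, the intestinal folate carrier, was at -0.65 and overlaps SARM1, and their sum differed by -0.19. CHURC1-FNTB was at 0.66 and CHURC1 at -0.38, and their sum differed by 0.03. With the other overlapping entities FNTB, MAX, RAB15 and GPX2 the sum of CHURC1-FNTB differed by 0.31, 0.25, 0.24 and -0.075. For these genes the difference of the single entity is therefore uncertain.

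The minimum of TPM 5 cut through a group of genes with low values. Within 0.05 above it in the lower library lay 84 genes, with differences from -0.50 for ZNF8 to 0.84 for SLC2A3. A further 362 entities reached it in 1 stable library only, of which 36 were above 0.5 and 23 below -0.5. Part of these counts is fixed by the choice, since such entities lie on opposite sides of the minimum. They are therefore not like-for-like with the 0.36% and 0.34% of all 9718 genes. Among the 362 was annexin ANXA10, at 2.78 in the SPRR1A line and 1.72 in the DsRed line.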

How the data were processed

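RNA was extracted with TRIzol, treated with DNase and sequenced in paired-end mode as stranded mRNA libraries, 1 for each of 4 conditions. Reads were mapped by the authors on transcripts of hg38 in Strand NGS with its defaults, and the deposited values are log2 TPM, of which the lowest is 0. Its version, the annotation release and how multi-mapped reads were divided are not given in the sources used here. Read counts were not used, so the depth of each library and its counting error are unknown.

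The 4 tables list the same entities in the same order. The log2 TPM of stable DsRed was subtracted from that of stable SPRR1A. Genes that reached a TPM of 5 on both sides were kept, and their median difference was subtracted. The threshold of 0.5 describes size only. Members, gene lists (49 in all) and thresholds were chosen with earlier results of these data known. The rule for named genes took the 15 highest and the 15 lowest, the genes of each list past 0.5 or at its ends, the genes the study measured by PCR and those near the minimum. Not all of these are printed, and other genes were picked after their values were seen. GC content and length came from canonical GENCODE 44 transcripts, matched by symbol or by the present RefSeq symbol of the Entrez Gene identifier. The adjustment for them subtracted the medians of 20 bins of each property in turn, in 3 rounds, and was chosen after seeing the data. Classes and positions came from RefSeq on GRCh38.p14. The calculations were tested on simulated data with planted shifts well above 0.5 and noise below the SD over genes. That test did not cover genes near 0.5. Python 3.11.15, numpy 2.4.6, pandas 2.3.3 and matplotlib 3.10.9 were used. The alternatives were other centrings, log2(TPM + 1), other minimums and thresholds, and small RNAs kept. Gene ontology analysis and the other assays of the study were not analysed here, and some genes are not reported here.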

Additional observations from a re-analysis of the deposited data

Results flagged for a closer look

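Genes past 0.5 in opposite directions in the stable and the transient pair were looked at again, with 1 library per condition and therefore without a test of the difference between the pairs. TBC1D14 had a centred log2 difference of -0.72 in the stable and 0.53 in the transient pair, SLC46A1 of -0.65 and 0.56, and CHURC1-FNTB of 0.66 and -0.79. Each of the 3 overlaps an entity with the opposite pattern over the 4 libraries, LOC100129931, SARM1 and CHURC1.

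Entities that stayed outside the 9718 genes because the DsRed line was under the minimum, but were more than 1 higher in the SPRR1A line, were also looked at. IPO11-LRRC70 had a log2 TPM of 4.33 in the SPRR1A line and was listed at 0 in the other 3 libraries, and LOC100129931 was at 4.03 and listed at 0 in the DsRed line and with SPRR1A plasmid. IPO11, whose span overlaps that of IPO11-LRRC70, was at 4.44 in the SPRR1A line and 4.76 in the DsRed line. SARM1 was at 3.61 in the SPRR1A line and 1.66 in the DsRed line. The histone genes HIST1H2BG and HIST1H2BC were at 2.74 and 2.42 in the SPRR1A line, at 1.65 and 0.89 in the DsRed line and between 3.63 and 4.34 in the transient libraries. EP300-AS1 was at 2.42 in the SPRR1A line and 1.19 in the DsRed line.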

How the results depend on the processing

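No paired analysis was possible because every group holds a single library. The counts of 35 higher and 33 lower genes became 63 and 21 without centring, 228 and 223 at a minimum of TPM 1, 7 and 7 at a minimum of TPM 20, and 2 and 4 at a threshold of 1. With a minimum of TPM 1 more genes of low level are counted. Under the other 6 alternatives the counts lay between 27 and 46 and between 24 and 49. Of the 35 and 33 genes, 27 and 31 were past 0.5 with level-dependent centring, 27 and 25 with log2(TPM + 1), and 23 and 19 with the adjustment for GC content, length and level, which was added after seeing the data. None of the 68 genes changed sign. The keratin median turned from -0.10 to 0.004 with level-dependent centring and to 0.024 with the adjustment. The medians of 2 polymerase III RNAs and 3 histones at TPM 20 were -0.968 and 0.147, and that of 5 mucins and trefoil factors at TPM 1 was -0.109. The other 283 list medians recomputed moved by less than the SD over genes, and the spread and the chromosome 22 median did so too. Most list medians are themselves smaller than this SD of 0.17, so one that vanishes or changes sign can also pass. The S100 median went from -0.152 to -0.010 with the adjustment, and the interferon median from 0.060 to -0.044 at a minimum of TPM 20. The spread over genes is not a replicate error, and low genes vary most.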

Other observations

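The heat shock chaperones had a median of 0.01 in the stable pair, or 0.10 after adjustment for GC content, length and level, with 14 of 23 genes above 0 and none past 0.5, and HSPH1 and HSPB8 were the highest at 0.37 and 0.32. The 12 genes of epigenetic silencing of retroviral sequence had a median of 0.03, from -0.22 for TRIM28 to 0.32 for MPHOSPH8, and an adjusted median of -0.01. The 23 cholesterol synthesis genes had a median of 0.07 and the 19 fatty acid synthesis genes one of 0.09, and none of either passed 0.5. Their adjusted medians were 0.05 and 0.07. The subtype transcription factor TP63, which drives basal and squamous programs, had a log2 TPM of 4.42 in the SPRR1A line and 4.04 in the DsRed line, and 4.85 and 5.05 with SPRR1A and GFP plasmid, a difference of 0.32, and FOXA2 was the lowest of the 10 subtype factors at -0.24. The 13 mitochondrially encoded genes were listed at 0 in both stable libraries. As 0 is the lowest deposited value, this does not show that their transcripts were absent, and whether reads were assigned to them is not known.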
